A study of Mus musculus with 2 samples.

Results

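This account covers collagens and collagen assembly, a set of 37 genes made up of 19 chains of the non-cartilage collagens and 18 proteins that modify, fold, process or crosslink them. A probe set, a group of probes on the array read as 1 signal, was assigned to a member where the probe annotation named that gene and no other. By this rule 66 of 45037 probe sets belonged to 35 of the 37 genes, among 18193 genes named in all. Fkbp10 had no such probe set and Loxl2 shared its probe sets with another gene name, so neither was analysed here. Of the 66 probe sets, 61 lay above the signal floor of 21.5 on at least 1 array, 59 of them on both, and they gave a value for all 35 genes, among 12276 genes measured.

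RNA came from primary osteoblasts, the bone-forming cells, of the skull caps (calvariae) of C57BL/6 mice 5 days old. The tested culture spent 6 h in serum-free a-MEM brought to 4 mM phosphate with a 0.5 M buffer of sodium phosphate (pH 7.2), and the control culture spent the same time in serum-free a-MEM with its own 1 mM phosphate. Both had been grown for 3 days in medium with 10% serum and then left without serum overnight. The labels name no sodium added to the control to match that of the phosphate buffer, so phosphate and sodium cannot be told apart. Each condition had 1 array, so no test between conditions was possible, no p-value is given, and precision is limited by having so few arrays.

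The cultures were bulk preparations, in which fewer cells of a type and less RNA per cell cannot be told apart. Of 8 osteoblast markers, 5 were measured, with a median log2 ratio of −0.19. Dmp1 had signals of 15708 in 4 mM phosphate and 5505 in the control (1.51), Ibsp 14449 and 13398 (0.11), Alpl 3373 and 3840 (−0.19), Pth1r 4278 and 5047 (−0.24) and Sp7 1223 and 1600 (−0.39). Runx2, Bglap and Spp1 gave no value. All 6 chondrocyte markers were measured, with a median log2 ratio of 0.04, and the cartilage collagen gene Col2a1 had signals of 4364 in 4 mM phosphate and 4809 in the control. All 9 macrophage and osteoclast markers were measured, with a median of −0.55, 8 of 9 below 0, and summed signals of 14950 in 4 mM phosphate and 16160 in the control, and none was at the floor on either array. None of 5 endothelial markers was measured. The 3′ signal of actin over its 5′ signal, which rises as RNA breaks down, was 1.43 in phosphate and 1.36 in the control. Poly-A spikes, foreign RNAs that go through labelling with the sample, had a median log2 ratio of 0.46 between phosphate and control, and hybridisation spikes, which skip labelling, one of 0.23.

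Collagen is made as procollagen chains that join into triple helices in the endoplasmic reticulum. Before they fold, prolyl 4-hydroxylases add the hydroxyl groups that keep the triple helix stable, and lysyl hydroxylases mark the lysines that later carry sugars and crosslinks. Chaperones such as HSP47 bind the helix in the endoplasmic reticulum and let go of it on the way to the Golgi, proteases later trim the propeptides, and lysyl oxidases start the crosslinks between molecules in the fibril. Type I collagen, made of the Col1a1 and Col1a2 chains, is the main protein of bone matrix.

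Promoter sequence was available in RefSeq (build GRCm38.p6) for 26 of the 37 genes. Plod2 and Col1a1 were among the genes without it, so the promoter counts do not cover them. Shown are the 250 bases before the annotated start of 3 hydroxylase genes with higher signals in 4 mM phosphate (Plod3, P4ha1 and P4ha2), of 1 collagen gene with lower signals (Col8a1) and of the bone collagen gene Col1a2. They are written 5′ to 3′ in the direction of transcription, and capitals mark matches on either strand to ACGTG or GCGTG, the cores of the hypoxia response element, and to CCAAT, the CCAAT box, none of which overlapped another here. Plod3 is at chr5:136986769-136987018, P4ha1 at chr10:59323046-59323295, P4ha2 at chr11:54100674-54100923 and Col1a2 at chr6:4505368-4505617, all on the plus strand, and Col8a1 is at chr16:57754738-57754987 on the minus strand.
Plod3: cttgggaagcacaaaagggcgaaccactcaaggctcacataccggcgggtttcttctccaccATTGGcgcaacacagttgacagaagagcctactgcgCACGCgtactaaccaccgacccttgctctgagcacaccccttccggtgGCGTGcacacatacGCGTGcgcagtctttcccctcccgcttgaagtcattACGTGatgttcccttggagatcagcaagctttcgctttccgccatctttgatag
P4ha1: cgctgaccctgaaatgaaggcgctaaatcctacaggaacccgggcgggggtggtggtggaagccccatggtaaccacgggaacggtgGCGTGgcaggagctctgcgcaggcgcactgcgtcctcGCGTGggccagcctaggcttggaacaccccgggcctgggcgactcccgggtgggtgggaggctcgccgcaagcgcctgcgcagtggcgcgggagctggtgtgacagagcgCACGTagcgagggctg
P4ha2: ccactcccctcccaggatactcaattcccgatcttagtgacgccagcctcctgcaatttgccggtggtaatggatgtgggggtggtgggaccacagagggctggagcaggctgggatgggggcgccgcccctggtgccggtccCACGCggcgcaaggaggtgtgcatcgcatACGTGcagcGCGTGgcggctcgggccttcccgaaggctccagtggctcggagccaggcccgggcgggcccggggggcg
Col8a1: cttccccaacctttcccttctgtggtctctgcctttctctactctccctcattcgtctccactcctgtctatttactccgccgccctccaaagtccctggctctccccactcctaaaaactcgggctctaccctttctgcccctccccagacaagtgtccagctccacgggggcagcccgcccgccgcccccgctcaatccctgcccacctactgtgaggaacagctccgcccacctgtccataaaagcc
Col1a2: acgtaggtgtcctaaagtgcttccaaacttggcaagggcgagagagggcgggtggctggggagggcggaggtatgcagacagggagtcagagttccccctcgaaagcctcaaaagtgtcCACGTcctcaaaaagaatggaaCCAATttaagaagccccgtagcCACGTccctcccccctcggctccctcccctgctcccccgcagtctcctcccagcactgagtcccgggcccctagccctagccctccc

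The Plod3 window held 4 hypoxia cores, the P4ha1 and P4ha2 windows 3 each and the Col1a2 window 2, while these letters were not in the Col8a1 window. At least 1 core was present in 18 of 28 windows of the members and in 38.6% of all 32851 windows of that length. The member windows were richer in G and C, with a median of 62.6% against 52.4% over all windows, and both cores hold CG. Ppib with 4 cores and Crtap with 3 had log2 ratios of 0.15 and −0.01. Whether the cores bear on the ratios was not tested. CCAAT occurred in 10 of 28 member windows and in 33.8% of all windows. The AP-1 letters TGANTCA occurred in 1 of 28 member windows, that of Col6a1, and in 6.75% of all windows. GGGCGG, the GC box, was in 19 of 28 member windows and 32.7% of all, with 4 matches in Col8a1, and TATAAA in 4 of 28 and 12.4%. These matches describe letters and are not binding sites.

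In 4 mM phosphate 2 of 35 measured members, the lysyl hydroxylase genes Plod2 and Plod3, were at least 1.5-fold higher than in the control. The chains of bone collagen and most of the machinery lay within 1.5-fold. Of 35 measured genes, 32 lay within 1.5-fold. Plod2 was 2.11-fold higher and Plod3 1.76-fold higher, and Col14a1 was 1.57-fold lower. Of all measured genes, 7.26% were higher by this much and 12.1% were lower by it. The members thus passed 1.5-fold no more often than genes at large, in either direction. Plod2 alone was at least 2-fold higher, against 2.3% of all genes, and no member was 2-fold lower, against 2.92%. The median log2 ratio of the members was 0.08, against −0.06 over all measured genes. It became −0.03 after quantile normalization and 0.00 after the loess correction, against −0.05 and −0.03 over all genes. Setting the poly-A spikes equal moved every log2 ratio by −0.46, and setting the hybridisation spikes equal moved them by −0.23, so ratios are given relative to the array-wide scaling.

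The only measure of error was technical, the standard deviation (SD) of log2 ratios among probe sets of the same gene. Grouped by the dimmer signal, it was 0.42 per probe set up to 100, 0.26 from 100 to 400 and 0.16 at higher signals, and it holds no difference between cultures. Of 34 members above the floor on both arrays, 4 were over 2 SD higher (Plod2, Plod3, P4ha1 and Lox) and 4 over 2 SD lower (Col14a1, Col8a1, Col13a1 and Loxl1). The shares among all such genes were 8.39% and 14.1%. Of 28 members with both signals above 400, 1 was at least 1.5-fold higher and 0 lower, against 3.9% and 3.48% of 4026 genes of that brightness.

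**Figure D1:**
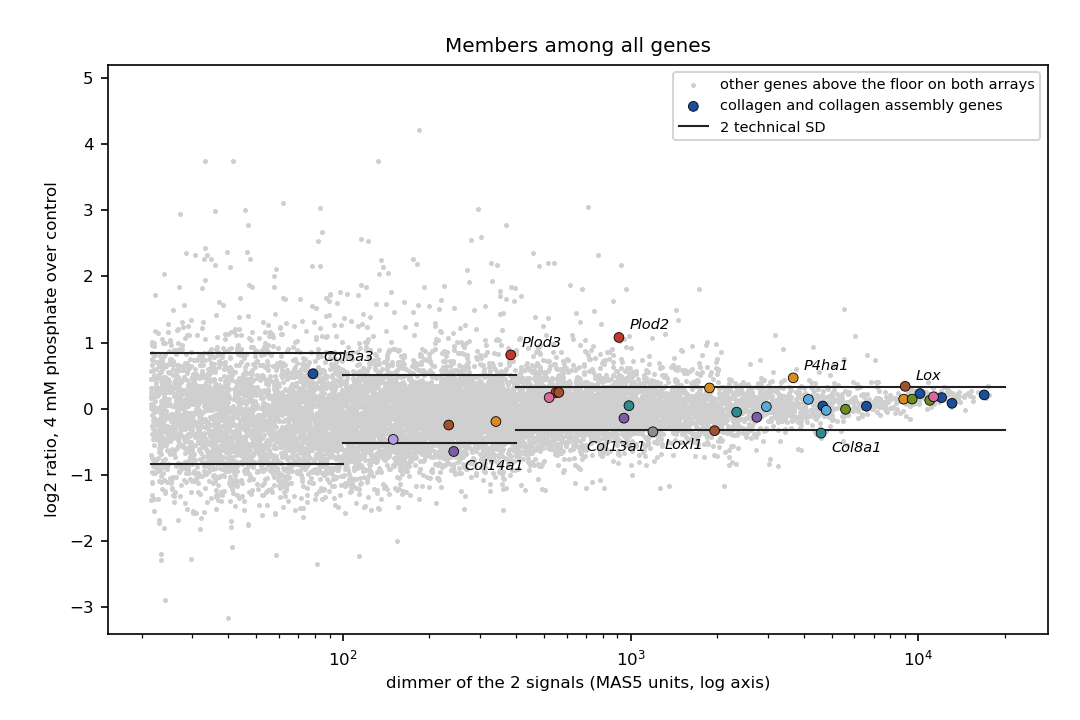
The log2 ratio of 4 mM phosphate over control is plotted against the dimmer of the 2 MAS5 signals on a log axis, with every gene above the floor on both arrays in grey, members in colour by role and black lines at 2 technical SD. Plod2 at 1.08 and Plod3 at 0.81 lie above the upper line and Col14a1 at −0.65 below the lower one, while most members lie between the lines.

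The 3 lysyl hydroxylase genes all had log2 ratios above 0, a direction that turned for Plod1 alone (−0.22) when the poly-A spikes were set equal. Plod2 encodes the enzyme that hydroxylates lysines of the collagen telopeptides, the ends from which crosslinks form. Its pair of probe sets gave signals of 1923 in 4 mM phosphate against 911 in the control, and 689 against 361. Both were higher in phosphate, with log2 ratios of 1.08 and 0.93, and the first lay 6.69 technical SD above 0. Across 15 settings the Plod2 ratio ranged from 0.61 to 1.13, at least 1.5-fold higher in each of them. Not every setting could change it, and moving the floor left it at 1.08.

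Plod3 encodes a lysyl hydroxylase that also adds glucose to hydroxylysine that already carries galactose. It had 1 probe set, with signals of 674 in 4 mM phosphate and 383 in the control, a log2 ratio of 0.81 or 3.16 technical SD. It stayed above 1.5-fold in 13 of 15 settings, some of which, such as moving the floor, could not change it. The Plod3 ratio was 0.35 with the poly-A spikes set equal and 0.58 with the hybridisation spikes. Plod1, the enzyme that hydroxylates lysines within the helix, had signals of 652 in phosphate and 550 in the control on its brighter probe set, a log2 ratio of 0.24. A dim probe set of Plod1, with 48.3 and 22.6, gave 1.09, where 1 technical SD is 0.42.

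Prolyl 4-hydroxylase is a tetramer of 2 alpha subunits, which hold the active site, and 2 beta subunits. P4ha1, the most widely used alpha subunit, had signals of 5079 in 4 mM phosphate and 3676 in the control on its brighter probe set, a log2 ratio of 0.47. The dimmer probe set gave 707 and 659, a log2 ratio of 0.10, so the probe sets differed in size though both were above 0. P4ha2, another alpha subunit, had 2339 in phosphate and 1881 in the control (0.31), and P4ha3, the remaining one, had 340 and 389 (−0.19). P4hb, the beta subunit and a protein disulfide isomerase, had 9840 and 8898 (0.15). With the poly-A spikes set equal, P4ha1 came to 0.00 and P4ha2 to −0.15, and after quantile normalization P4hb came to −0.03.

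**Figure D2:**
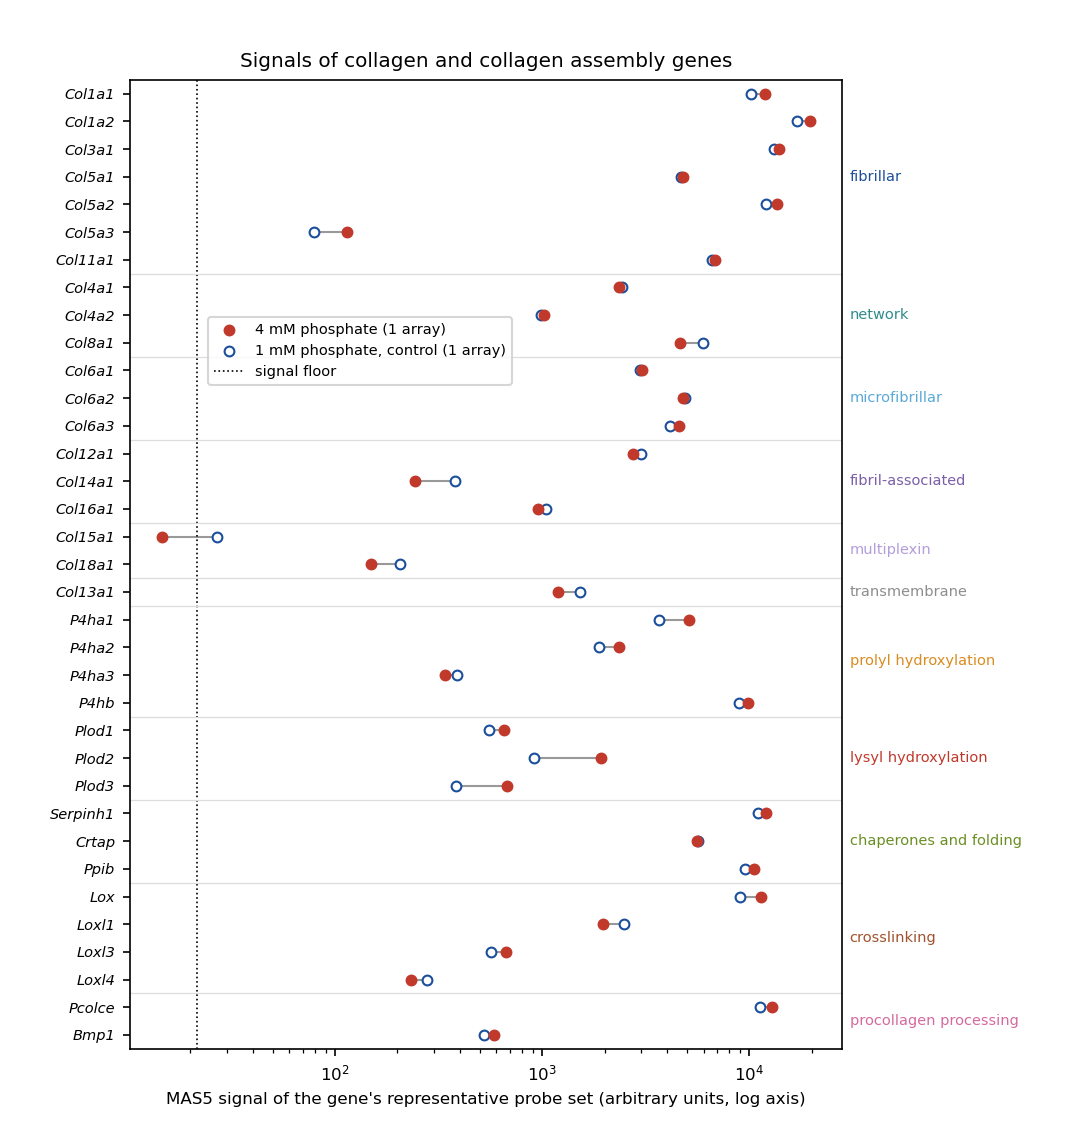
MAS5 signals of each member's representative probe set are plotted on a log axis by role, with filled points for 4 mM phosphate, open points for the 1 mM control (1 array each) and a dotted line at the floor of 21.5. The widest gaps among bright genes are those of Plod2 (1923 and 911) and Plod3 (674 and 383), and the points of Col6a1 (3030 and 2965) nearly coincide. Positions of different genes along the axis reflect their probes and are not to be compared.

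The chaperone and folding genes among the members differed little. Serpinh1, which encodes the collagen chaperone HSP47, had signals of 11971 in 4 mM phosphate and 10962 in the control on one probe set and 11864 and 10908 on the other, with log2 ratios of 0.13 and 0.12. Crtap, which helps prolyl 3-hydroxylation of collagen chains, had 5586 and 5621 (−0.01). Ppib, which encodes cyclophilin B, a prolyl isomerase of the same complex, had 10537 and 9521 (0.15), and its second probe set gave 0.20. None of these was past 1 technical SD on its brighter probe set. Serpinh1 changed sign after quantile normalization (−0.06) and the loess correction (−0.03), and with either set of spikes (−0.34 and −0.10).

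Genes that trim procollagen were likewise close. Pcolce, which enhances removal of the C-propeptide, had signals of 12800 in 4 mM phosphate and 11298 in the control (0.18), and its other probe set gave 8179 and 8456 (−0.05). Bmp1, the proteinase that removes that propeptide, had 586 and 521 (0.17), and a dimmer probe set gave 98.2 and 105 (−0.09). For both genes the probe sets pointed opposite ways.

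The lysyl oxidase genes split, 2 above 0 and 2 below. Lox, the founding member, had signals of 11391 in 4 mM phosphate and 9006 in the control on one probe set and 7149 and 4893 on another. Both were higher in phosphate, with log2 ratios of 0.34 and 0.55, and its remaining probe set lay at the floor in phosphate. The Lox ratio was 0.17 after quantile normalization and −0.12 with the poly-A spikes set equal. Loxl3 had 668 in phosphate and 563 in the control (0.25).

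Loxl1, a lysyl oxidase best known for elastic fibres, had signals of 1960 in 4 mM phosphate and 2467 in the control, a log2 ratio of −0.33. Its dimmer probe set, with 76.3 and 120, was lower too, at −0.66. Loxl4 had 233 in phosphate and 277 in the control (−0.25), and 52.3 and 81.4 (−0.64) on its dimmer probe set. Both genes were below 0 in each of 15 settings, though setting spikes equal could only lower their ratios and moving the floor left them unchanged.

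Fibrillar collagen chains form the striated fibrils of bone and other connective tissue. For the 7 fibrillar chains among the members, all representative log2 ratios were above 0, with a median of 0.17. None of these 7 was 1.5-fold different. Fibrillar chains outside the members, such as Col24a1 and Col27a1, are given below with the other collagens. Col5a3 was at least 1.5-fold higher in 3 of 15 settings, after quantile normalization (0.62), the loess correction (0.63) and centring on the median gene (0.59). Col1a1 had signals of 11889 in 4 mM phosphate and 10139 in the control on one probe set and 10958 and 9358 on the other. Both were slightly higher in phosphate, at 0.23 each. Col1a2, its partner chain, had 19590 and 16948 (0.21), with 17568 and 13841 (0.34) on another bright probe set. Its remaining, much dimmer probe set had 224 and 131 (0.78). After quantile normalization Col1a1 and Col1a2 stood at 0.04 and 0.02, and with the poly-A spikes set equal at −0.23 and −0.25.

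Col3a1, the chain of type III collagen, had signals of 13870 in 4 mM phosphate and 13101 in the control (0.08) on one probe set and 2501 and 2988 (−0.26) on the other, so its direction was not settled. Col5a1 and Col5a2, chains of the type V collagen that starts type I fibrils, had 4792 and 4658 (0.04) and 13539 and 12051 (0.17). The other probe sets of Col5a1 were above 0 (0.06 and 0.18), and that of Col5a2, with 5246 in phosphate and 5482 in the control, was below it (−0.06). Col5a3, a less common type V chain, had the highest ratio of the collagen chains at 0.53, from dim signals of 114 and 78.7, which is 1.26 technical SD. Col11a1, the type XI chain shared by cartilage and bone, had 6784 in phosphate and 6606 in the control (0.04). Of these 7 genes, 4 were below 0 after quantile normalization (Col3a1, Col5a1, Col5a2 and Col11a1), and only Col5a3 stayed above 0 with the poly-A spikes set equal (0.07).

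The chains of type VI collagen, which forms beaded microfilaments around cells, lay close to 0. Col6a1 had signals of 3030 in 4 mM phosphate and 2965 in the control (0.03), Col6a2 had 4786 and 4869 (−0.02) and Col6a3 had 4576 and 4150 (0.14). The basement membrane chain Col4a1 had 2338 in phosphate and 2424 in the control (−0.05), with 472 and 453 (0.06) on its dimmer probe set, and Col4a2 had 1019 and 987 (0.05). Some members are next to each other among protein-coding genes of the RefSeq annotation. These are Col3a1 with Col5a2, Col6a1 with Col6a2, and Col4a1 with Col4a2, and the ratios within each pair differed by less than 1 technical SD of 0.16.

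Among the member chains, the lowest log2 ratios were those of Col14a1, Col18a1, Col8a1, Col13a1 and Col15a1. Of fibrillar chains outside the members, Col24a1 was lower in 4 mM phosphate (−0.65) and Col27a1 higher (0.68). Col8a1, a chain of the short network-forming type VIII collagen, had signals of 4594 in 4 mM phosphate and 5937 in the control, 2834 and 3929 on another probe set and 152 and 292 on the dimmest. All 3 probe sets were lower in phosphate, with log2 ratios of −0.37, −0.47 and −0.94. Col14a1, a collagen that binds the surface of fibrils, had 243 in phosphate and 380 in the control on one probe set and 119 and 172 on the other, with ratios of −0.65 and −0.53. The ratio of Col14a1 was 1.5-fold lower or more in 12 of 15 settings, some of which, such as moving the floor, could not change it.

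Col18a1, a basement membrane proteoglycan and the source of endostatin, had signals of 150 in 4 mM phosphate and 206 in the control, and 106 and 149 on its other probe set, both lower, at −0.46 and −0.49. Col13a1, a transmembrane collagen, had 1196 and 1523 (−0.35) on its single probe set. Col15a1, related to Col18a1, lay under the floor in phosphate and had a signal of 26.8 in the control, so it was at least 1.25-fold lower. Col12a1 and Col16a1, both fibril-associated like Col14a1, had 2748 and 3005 (−0.13) and 949 and 1047 (−0.14), with 533 and 532 (0.00) on the dimmer probe set of Col12a1. Col8a1, Col13a1, Col14a1 and Col18a1 were below 0 in each of 15 settings, though not every setting could change their sign. Setting spikes equal could only lower these ratios, and moving the floor left them unchanged. Most macrophage and osteoclast markers were lower on the same array, with a median of −0.55, though Lyz2 was at −0.03 and Ctsk at 0.10. The fibroblast markers Pdgfra and Dpt were at −0.22 and −0.15, with up to 0.29 on another probe set of Pdgfra. The part of such cells in these values was not tested.

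**Figure D3:**
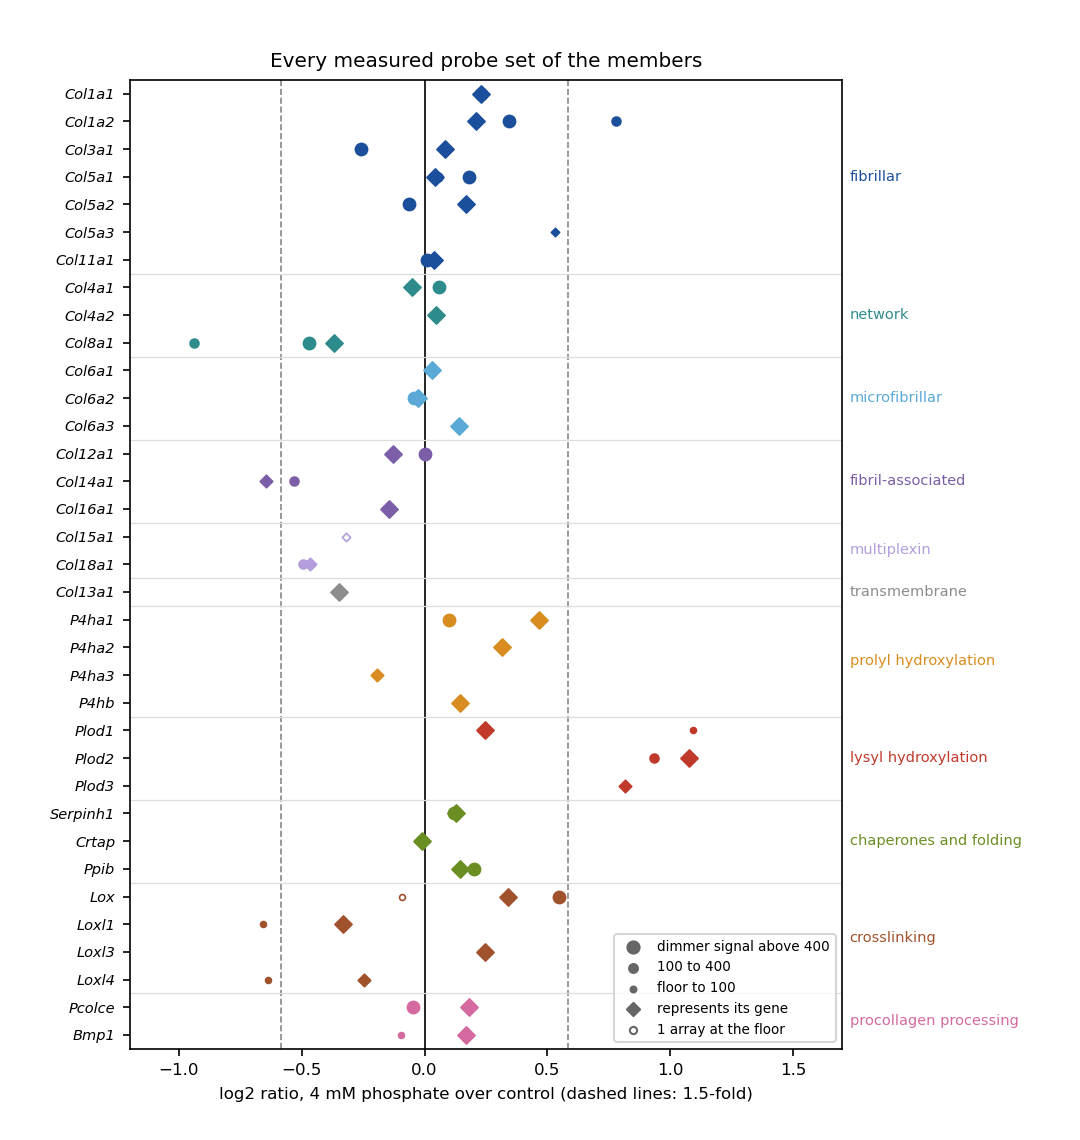
Each point is the log2 ratio of 4 mM phosphate over control for 1 of the 61 measured probe sets, grouped by gene and role, with diamonds for the probe set that represents the gene, larger points for brighter signals, open points where 1 array was at the floor and dashed lines at 1.5-fold. Both probe sets of Plod2 (1.08 and 0.93) lie right of the upper line, and all 3 of Col8a1 (−0.37 to −0.94) and both of Col14a1 (−0.65 and −0.53) lie left of 0.

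Past 1.5-fold lay 5 of the 61 probe sets on the higher side and 4 on the lower side, against 8.87% and 11% of all measured probe sets that name 1 gene. The higher ones were both of Plod2, that of Plod3 and the dim ones of Plod1 and Col1a2. The lower ones were 1 each of Col8a1, Col14a1, Loxl1 and Loxl4. Of 22 members with several probe sets that cleared the floor on both arrays, 10 had all of them above 0, 6 had all below 0 and 6 were mixed. Among 4954 such genes in the whole table, the counts were 1354, 1598 and 2002. The names of 15 measured probe sets, such as the only ones of P4hb and Serpinh1, end in _a_at, _s_at or _x_at, marks of probes shared between transcripts, so they may also detect related transcripts.

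By kind, the 16 assembly proteins had a median log2 ratio of 0.17 and a range of −0.33 to 1.08, and the 19 collagen chains a median of 0.03 and a range of −0.65 to 0.53. Among the assembly proteins 12 were above 0 and 4 below, and among the chains 10 were above and 9 below. Over all measured genes 5417 were above 0 and 6858 below. With both signals above 400, 20 of 28 members were above 0, against 1953 of 4026 genes. These counts depend on the scaling. Of all 35 members 22 were above 0 and 13 below, but 13 and 22 after quantile normalization, and 17 and 18 after the loess correction.

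Other collagen genes, a list drawn up from the collagen family beside the members, had 14 measured of 25, with a median of −0.14 and 11 of 14 below 0. Col10a1, the collagen of hypertrophic cartilage, was 1.77-fold higher from dim signals of 94.0 in 4 mM phosphate and 53.2 in the control. Col27a1, a fibrillar collagen of cartilage, had 432 and 270 and was 1.60-fold higher, with a log2 ratio of 0.26 on its other probe set. Col24a1, a fibrillar collagen found in bone, had 308 and 482 and was 1.57-fold lower, and Col23a1, a transmembrane collagen, had 34.2 and 57.5 and was 1.68-fold lower, with 0.15 on another of its probe sets. These 4 were the members of that list past 1.5-fold.

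Of 35 other genes for collagen modification, folding, secretion and trimming, 29 were measured, with a median log2 ratio of −0.05. By their representative probe sets 28 lay within 1.5-fold, though some other probe sets of these genes did not. P4htm, a transmembrane prolyl hydroxylase, is not one of the subunits of the collagen prolyl 4-hydroxylase described above. It was 1.73-fold lower, with dim signals of 36.4 in 4 mM phosphate and 63.1 in the control. Its other probe set gave −0.13. Sparc, a collagen-binding glycoprotein of bone, had 21992 and 17412 (0.34), with −0.02 on its lowest probe set, and Hspa5, the general chaperone BiP, had 6616 and 5918 (0.16). Pcolce2, a relative of Pcolce, had 2058 and 2899 (−0.49). Of 17 collagen receptor and turnover genes, 13 were measured, with a median of 0.06. None was 1.5-fold different on its representative probe set, though not every other probe set lay within 1.5-fold. The collagenase gene Mmp13 was highest above the floor, with 15412 and 12263 (0.33), followed by Mmp14, a membrane-bound collagenase, with 5730 and 5031 (0.19). Itgb1, a subunit of collagen-binding integrins, and Ddr2, a receptor for fibrillar collagen, were at −0.09 and −0.04, with 0.32 on the other probe set of Ddr2.

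**Figure D4:**
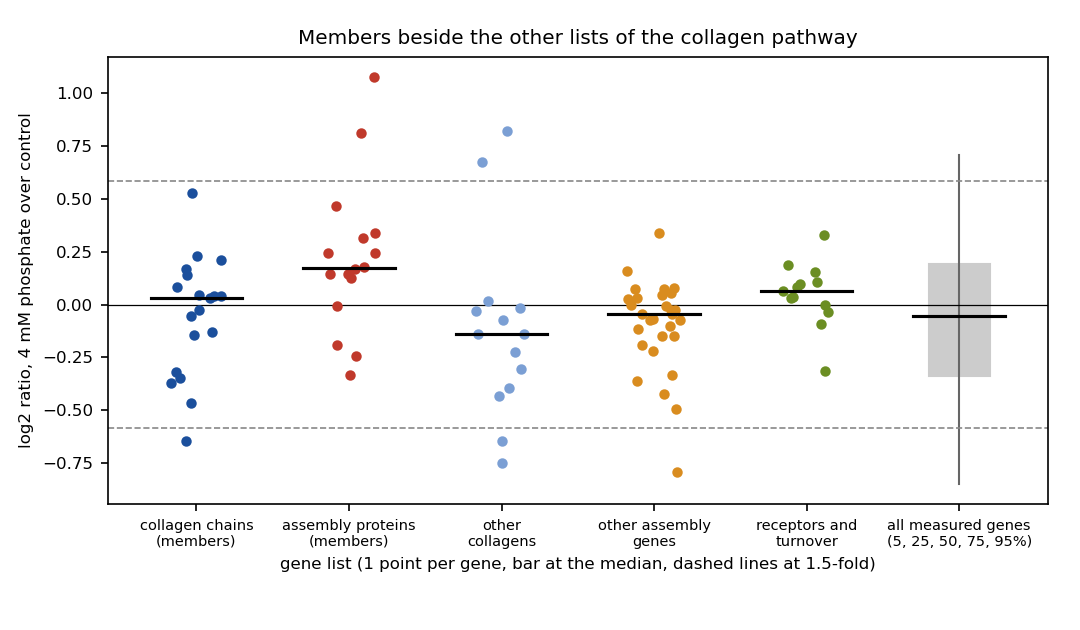
Points are log2 ratios of 4 mM phosphate over control, 1 per measured gene, for the collagen chains and assembly proteins among the members, for 3 further lists of the pathway and, as a box from percentile 25 to 75 and a line from percentile 5 to 95, for all measured genes. Black bars mark medians, which lie at 0.03, 0.17, −0.14, −0.05, 0.06 and −0.06 from left to right.

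**Figure D5:**
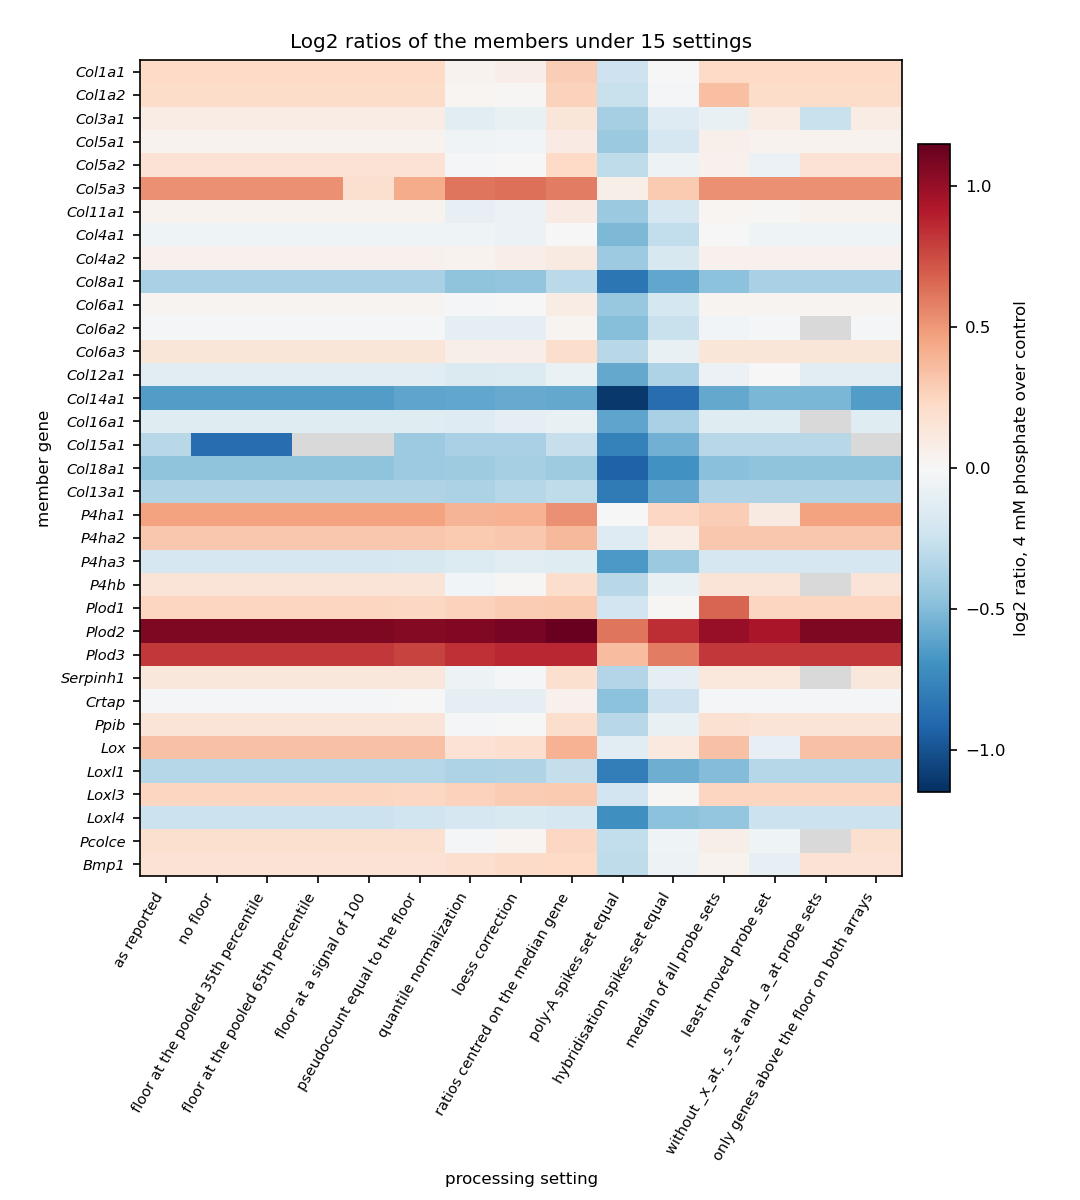
Colours give the log2 ratio of 4 mM phosphate over control for each member (lines) under the reported processing and 14 alternatives (columns), red for higher and blue for lower in phosphate, grey where a setting gave no value. Plod2 stays red in all columns (0.61 to 1.13) and Col14a1 blue (−1.11 to −0.53), while Col1a1 turns with the spikes set equal (−0.23 with poly-A spikes).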

How the data were processed

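The authors deposited an intensity for each probe set on each array, on a linear scale, made with MAS5 in GCOS 1.4, per the submitters' processing notes. Labelled cRNA was made from 100 ng total RNA for Affymetrix arrays, per the labels. As calculated here, the 2% trimmed mean was 200.00 on each array, so a change of total mRNA per cell is hidden. Groups were taken from the sample labels.

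Of 45101 probe sets, 64 were controls and 34945 named 1 gene. Symbols were checked by Entrez identifier against RefSeq (34741 matched, 0 changed). The pooled median (21.5) served as a floor, and each log2 ratio is phosphate minus control. A gene was represented by its brightest measured probe set by mean log2 signal. A ratio with an array at the floor is only a bound. With 1 array per group no test was run, and depth has no counterpart on arrays. The technical SD was pooled within genes in 3 bins of the dimmer signal. Every member could be named, and from the other lists genes past 1.5-fold together with the 2 highest and 2 lowest. The members, the lists and the settings were chosen with earlier results of these data known. Promoters were searched on both strands in the 250 bases before each start, and those printed were chosen after the ratios were seen. The steps were tested on simulated data. Python 3.11.15, numpy 2.4.6, pandas 2.3.3, statsmodels 0.14.6 (lowess fraction 0.3) and matplotlib 3.10.9 were used. The alternatives covered the floor, normalization, the choice of probe set and the genes counted.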

Additional observations from a re-analysis of the deposited data

Results flagged for a closer look

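All 24 poly-A spike probe sets gave more signal on the 4 mM phosphate array than on the control array, although they measure no mouse gene. Their median log2 ratio was 0.46, between extremes of 0.20 and 0.65. All 18 hybridisation spike probe sets did so too, with a median of 0.23.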

How the results depend on the processing

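The median log2 ratio of the members (0.08) became −0.031 after quantile normalization, −0.38 with the poly-A spikes set equal and −0.15 with the hybridisation spikes set equal. Setting spikes equal moves every ratio by construction, and the median over all genes was then −0.52 and −0.29. The count at least 1.5-fold higher (2) became 1 with either set of spikes and 3 after quantile normalization, the loess correction, centring on the median gene (each adding Col5a3) and with the median of all probe sets (adding Plod1). The count at least 1.5-fold lower (1) became 2 without a floor and with a lower floor at pooled percentile 35, 10 with the poly-A spikes and 3 with the hybridisation spikes. It became 0 after the loess correction, with the least moved probe set, and without probe sets ending in _x_at, _s_at or _a_at. The count at least 2-fold higher (1) became 0 with either set of spikes and with the least moved probe set, and the count 2-fold lower (0) became 1 with the poly-A spikes. Among all genes, those at least 1.5-fold higher and lower numbered 891 and 1489, or 254 and 5290 with the poly-A spikes and 458 and 2924 with the hybridisation spikes. No member past 1.5-fold changed sign. Apart from the scalings named, the cause of each shift was not tested. Both spike scalings were planned with the size of the poly-A shift known. No paired analysis was possible because each group had 1 array, which also allowed no array to be left out. Dim signals limit the precision of Col5a3, Col15a1 and the dimmer probe sets of Plod1, Loxl1 and Loxl4.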
